A study of Rattus norvegicus with 4 samples.

Results

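Collagens are triple helical proteins built from 3 chains, and each chain has its own gene. The 44 collagen chain genes described here are those whose symbol is COL, a type number, A and a chain number in an expression table of 27832 features from rat middle ear mucosa. They came from 47 features, since COL4A3, COL15A1 and COL23A1 each had more than 1, and the feature with the highest mean stood for the gene. Of these chains, 38 had a mean of at least 1 FPKM, which is a fragment count scaled to transcript length and library size. On that scale genes of different length can be set side by side. The other 6 (COL4A3, COL6A4, COL10A1, COL20A1, COL26A1 and COL28A1) were under that level. COL6A6, COL19A1 and COL25A1 were past it through 1 library alone.

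The mucosa was scraped from the bulla of Sprague-Dawley rats (strain label SD) 1 week after the right middle ear was injected through the eardrum. The 4 groups were media only, methicillin-resistant Staphylococcus aureus (MRSA), Pseudomonas aeruginosa (PA), and both species together (MRSA + PA). The labels give an injected volume of 50 µL, and they do not give the age of the animals or how many rats a library holds. Each group was 1 library, so no difference computed here has a replicate check or a test. A difference between libraries cannot be told apart from one between animals or dissections. The paper lists p-values for COL2A1, COL14A1 and the laminin gene LAMB3 in each inoculated group. For the collagens they passed its threshold only with both species. It also gives real-time RT-PCR for the tendon genes TNMD and KERA and the muscle genes ACTA1 and MYH1 in all inoculated groups. Neither was used here.

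Fibrillar collagens (types I, III and V among them) form the load-bearing fibrils of connective tissue. Type IV is the sheet-forming collagen of basement membranes, and type VII anchors these membranes to the fibrils beneath. Types II, IX, X and XI are typical of cartilage. FACIT collagens sit on the surface of fibrils, and transmembrane collagens such as type XVII span the cell membrane. Type VI forms beaded filaments, and type VIII forms hexagonal networks. Each chain was put in a single class. Type IX, also a FACIT collagen, and types II, XI and XXVII, also fibrillar, were therefore counted here as cartilage collagens only. The middle ear mucosa is a thin epithelium on a sheet of connective tissue over the bone of the bulla, and the eardrum and the muscles of the ossicles lie beside it.

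The total collagen signal was highest with media, and type I made most of the difference. The summed level of the 44 genes was 9419 FPKM with media, 5912 with MRSA, 6081 with PA and 4668 with MRSA + PA, which is 0.628, 0.646 and 0.496 times the media value. Type I chains (COL1A1 and COL1A2) made 69.3% of that sum with media, 58.0% with MRSA, 50.2% with PA and 49.9% with MRSA + PA. Leaving out COL1A1, COL1A2 and COL3A1, the sum of the remaining chains was 1362 FPKM with media and 1169, 1552 and 1190 FPKM in the MRSA, PA and MRSA + PA libraries. The fibrillar class as a whole went from 87.7% of the collagen signal with media to 83.4%, 78.7% and 78.6%. The basement membrane class took 2.42% with media and 3.94%, 5.42% and 5.10% in the MRSA, PA and MRSA + PA libraries. Its own sum moved less than its share, from 228.2 FPKM with media to 232.9, 329.6 and 237.8. Cartilage collagens took 1.25%, 1.69%, 2.77% and 1.58% in the same order, and beaded filament and network collagens 6.53%, 8.49%, 9.96% and 11.6%.

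**Figure D1:**
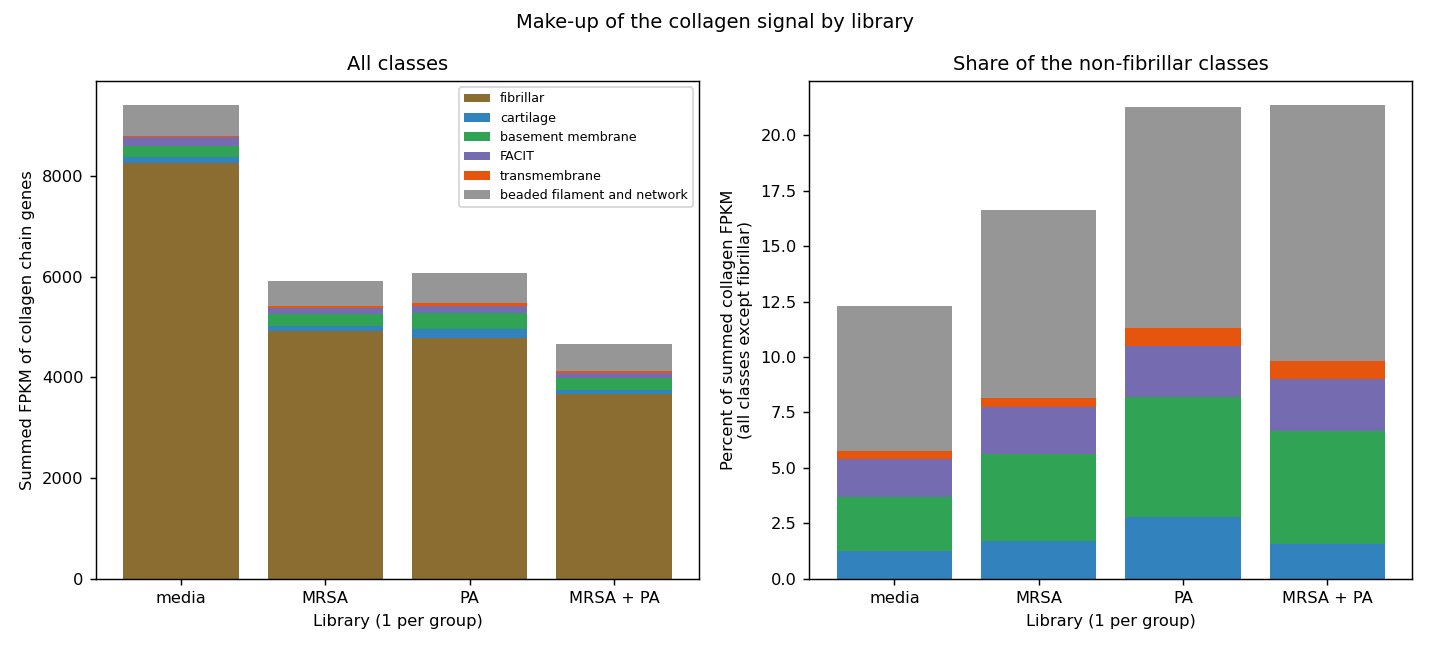
Left, the summed FPKM of the collagen chain genes in each of the 4 libraries, stacked by class, from 9419 with media to 4668 with MRSA + PA. Right, the percent of that sum held by each class other than fibrillar, whose stack is lowest with media.

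A chain was counted as higher or lower where 2 libraries were at least 2-fold apart, a log2 difference of 1 after 0.1 FPKM was added to both. The same count over the 15944 features whose mean reached 1 FPKM is the background. With MRSA, 2 of the 38 chains were at least 2-fold above media, against 8.47% of all features, and 5 were at least 2-fold below, against 4.95%. With PA, 8 chains were above (all features 10.0%) and 8 below (7.80%). With MRSA + PA, 3 chains were above (7.78%) and 8 below (7.83%). COL6A6, which passed the level filter only through media, is in each of the counts below media. COL19A1, which passed it only through MRSA + PA, is in the count above media for that library. These members were let in by the library where they were high. The share of chains above media, 5.26%, 21.1% and 7.89%, was under, above and near that of all features. The share below media, 13.2%, 21.1% and 21.1%, was above it in each case in this setting. With MRSA the 5 chains below media fell to 2 with 1 FPKM added, and to 2 with a mean of at least 5 FPKM required. No background was counted under those settings. Over all 44 chains the counts above media were 2, 9 and 4, and those below were 6, 12 and 11. The 3 comparisons share the media library, so a deviation of that library would enter all of them. The median log2 difference of the 38 chains was -0.27 with MRSA, -0.08 with PA and -0.24 with MRSA + PA, beside 0.05, 0.07 and 0.05 for all features. By class, the medians with MRSA, PA and MRSA + PA were -0.29, -0.05 and -0.43 for fibrillar, -0.04, 0.93 and -0.24 for cartilage and 0.01, 0.50 and 0.09 for basement membrane collagens. They were -0.26, -0.41 and -0.33 for FACIT, -0.32, -0.42 and 0.24 for transmembrane, and -0.43, -0.22 and -0.15 for beaded filament and network collagens, so no class median was 2-fold from media on the values as deposited. The cartilage median with PA was 1.10 when libraries were scaled to equal sums over features of at least 300 bp, past 2-fold. Under another scaling the sign turned for the fibrillar median with PA, the cartilage and basement membrane medians with MRSA, and the beaded filament and network median with MRSA + PA. Of the 38, 20 stayed within 2-fold of media in every inoculated library. That count was not made over all features, so it has no background beside it.

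The inoculated libraries were also compared with each other. MRSA + PA against MRSA had 1 chain higher (all features 1.61%) and 4 lower (5.73%). MRSA + PA against PA had 2 higher (2.50%) and 5 lower (4.27%). PA against MRSA had 5 higher (3.54%) and 1 lower (5.03%). The chains at least 2-fold higher with PA than with MRSA were COL2A1, COL7A1, COL9A1, COL9A3 and COL17A1, and the lower one was COL6A6. With MRSA + PA, COL2A1, COL9A1, COL9A3, COL14A1 and COL17A1 were at least 2-fold lower than with PA, while COL13A1 and COL25A1 were higher. Against MRSA, the MRSA + PA library was lower in COL2A1, COL6A6, COL11A2 and COL14A1 and higher in COL25A1. COL25A1, counted as higher in each of these comparisons of MRSA + PA, passed the level filter only through that library, where it was high.

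**Figure D2:**
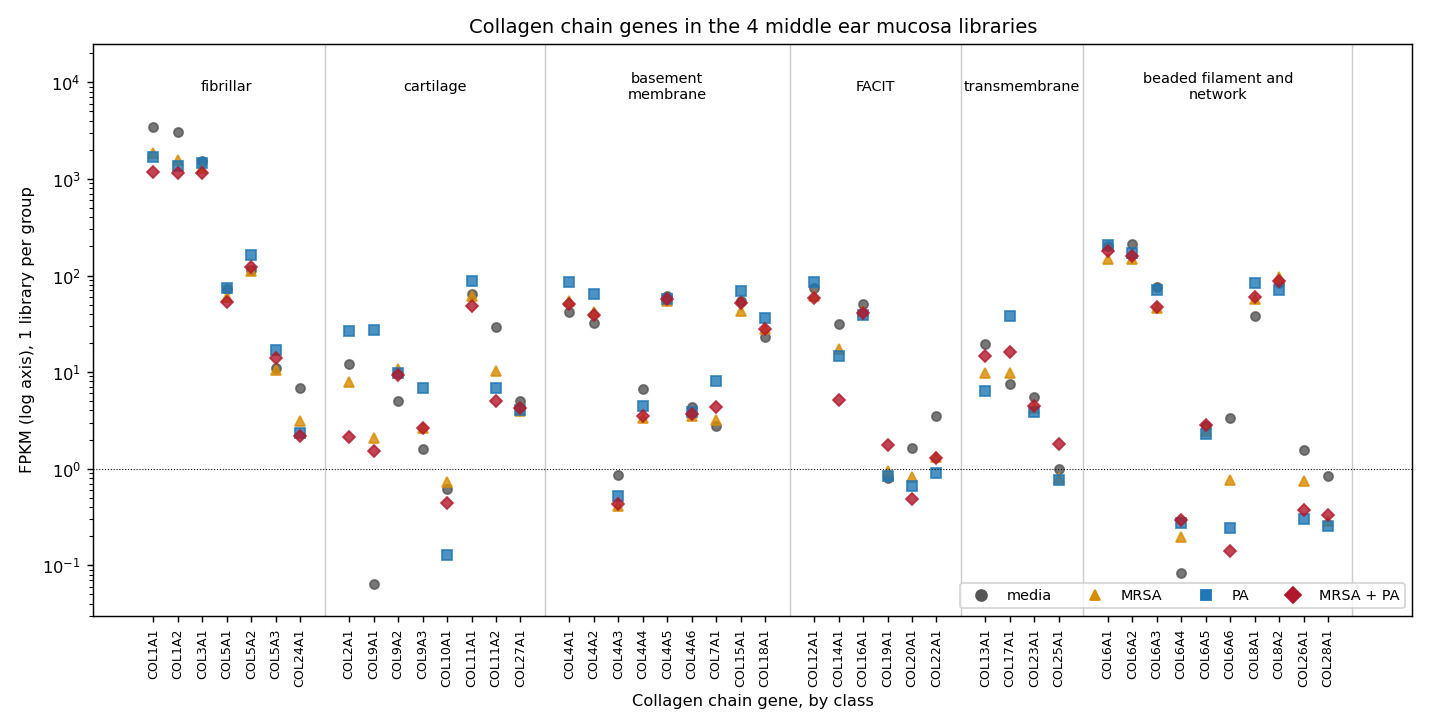
FPKM on a log axis of all 44 collagen chain genes, grouped by class, with 1 point for each of the 4 libraries and a dotted line at 1 FPKM. COL1A1, COL1A2 and COL3A1 are the 3 highest in every library, and COL9A1 has the widest spread.

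Type I collagen, the main fibril protein of bone, tendon and skin, gave the largest signal. COL1A1, its alpha 1 chain, was at 3463 FPKM with media, 1872 with MRSA, 1704 with PA and 1171 with MRSA + PA. COL1A2, the alpha 2 chain, was at 3062, 1558, 1350 and 1159 FPKM. All 3 inoculated libraries were below media for both chains, by log2 differences of -0.89, -1.02 and -1.56 for COL1A1 and -0.97, -1.18 and -1.40 for COL1A2. The COL1A1 difference with PA was -0.85, under 2-fold, when libraries were scaled to equal sums over features of at least 300 bp. With equal sums over all features, the differences with MRSA passed 2-fold, at -1.15 for COL1A1 and -1.24 for COL1A2. Among features of at least 300 bp, COL1A1 was the 24th most abundant with media and ranked 44, 49 and 93 in the MRSA, PA and MRSA + PA libraries. The ratio of COL1A1 to COL1A2 stayed between 1.01 with MRSA + PA and 1.26 with PA.

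Type III collagen, the partner of type I in soft tissue, differed much less from media. COL3A1 was at 1532 FPKM with media, 1312 with MRSA, 1475 with PA and 1148 with MRSA + PA, all within 2-fold of media (log2 differences -0.22, -0.05 and -0.42). The ratio of COL3A1 to COL1A1, chosen after the values were seen, was lowest with media. It was 0.442 there and 0.701, 0.865 and 0.980 in the MRSA, PA and MRSA + PA libraries. The type V chains, which help start and limit fibril growth, were also within 2-fold of media. COL5A2 was at 115.0, 112.4, 165.0 and 122.4 FPKM with media, MRSA, PA and MRSA + PA, COL5A1 ranged from 53.7 to 73.9 FPKM and COL5A3 from 10.5 to 16.9 FPKM. The ratio of COL5A1 to COL5A2 was 0.629 with media and 0.527, 0.448 and 0.439 in the other 3 libraries. COL24A1, a minor fibrillar chain known from bone, went the way of type I. It was at 6.80 FPKM with media and 3.11, 2.36 and 2.20 with MRSA, PA and MRSA + PA, at least 2-fold lower in each (log2 differences -1.10, -1.49 and -1.58), though with 1 FPKM added the MRSA difference was -0.92, under 2-fold.

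Tendon markers were lower beside type I in every inoculated library, and osteoblast markers were mixed. The 9 osteoblast markers, all found, summed to 6546 FPKM with media, 2624 with MRSA, 1772 with PA and 3305 with MRSA + PA. Most of that sum was osteocalcin (BGLAP), a protein of bone matrix, at 5905, 2282, 1529 and 2717 FPKM with media, MRSA, PA and MRSA + PA. The median log2 difference of the 9 was -0.90 with MRSA, -1.53 with PA and 0.01 with MRSA + PA. With MRSA + PA, IBSP (270.5 FPKM, 257 with media) and DMP1 (141 FPKM, 132 with media), matrix proteins of mineralising bone, were near the media level while COL1A1 was at its lowest. The 6 tendon markers, all found, summed to 992.6 FPKM with media, 282.9 with MRSA, 63.1 with PA and 37.8 with MRSA + PA. Tenomodulin (TNMD) was at 64.5 FPKM with media and at 17.7, 0.421 and 0.465 in the MRSA, PA and MRSA + PA libraries. The 10 fibroblast markers, of which TCF21 was listed at 0 in every library, summed to 3363, 2121, 2052 and 2288 FPKM with media, MRSA, PA and MRSA + PA. Decorin (DCN), a proteoglycan on collagen fibrils, was the largest part of that with media, at 1412 FPKM with media and 598, 529 and 569 in the inoculated libraries, while lumican (LUM) ranged from 906 to 1135 FPKM and was the largest part in the inoculated libraries. The part of these cell types in the type I difference was not tested. In RNA of a whole tissue, fewer cells of a type and less RNA per cell cannot be told apart.

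Among the genes that make and finish collagen chains, only P4HA3 and PCOLCE2 were counted as 2-fold from media. Of all features, 8.47%, 10.0% and 7.78% were at least 2-fold above media with MRSA, PA and MRSA + PA. At least 2-fold below were 4.95%, 7.80% and 7.83%. Of 24 listed names for chain modification and folding, which include older names of some genes, 19 were found and all passed the level filter. P4HA3, a prolyl hydroxylase subunit, was the only one at least 2-fold from media in any library, at 5.81 FPKM with PA and 2.57 with media (log2 difference 1.15). The collagen chaperone SERPINH1 was at 634 FPKM with media and at 441, 472 and 503 with MRSA, PA and MRSA + PA. P4HB and PPIB, which serve the folding of many proteins, ranged from 310.04 to 393 FPKM and from 263 to 327 FPKM. MIA3, needed for collagen export, is shown by a feature of only 184 bases, and its level of 1481 FPKM with media is uncertain for that reason. The medians of this list were -0.36, -0.19 and -0.20 with MRSA, PA and MRSA + PA. In the list for propeptide removal and cross-linking, 12 of the 14 genes passed the filter, and only PCOLCE2, an enhancer of procollagen cleavage, was at least 2-fold lower, at 3.94 FPKM with MRSA and 11.4 with media (log2 difference -1.51). Its medians were -0.34, -0.20 and -0.16. Lysyl oxidase (LOX), which cross-links the fibrils, ranged from 69.0 FPKM with media to 85.9 with PA.

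Among genes for collagen breakdown, MMP13, CTSK and MMP9, were highest with MRSA + PA. MMP13, a collagenase of bone and cartilage, was at 1366 FPKM with media, 519.5 with MRSA, 587 with PA and 2388 with MRSA + PA. It was at least 2-fold lower than media with either species alone (log2 differences -1.39 and -1.22) and 0.81 above it on the log2 scale with both. Cathepsin K (CTSK), the collagen-degrading protease of osteoclasts, was at 1172, 1259.8, 659 and 2491 FPKM with media, MRSA, PA and MRSA + PA, and it was 2-fold or more above media in the MRSA + PA library only (log2 difference 1.09). MMP9 was highest in the same library, at 209.8 FPKM against 96.1 with media (log2 difference 1.12). MMP2 was at 445 FPKM with media and between 314 and 317 in the inoculated libraries, and MMP14 ranged from 309 to 333 FPKM. Of the 10 genes found in this list, all past the filter, 2 were lower with MRSA, 2 lower with PA and 2 higher with MRSA + PA, with medians of -0.03, -0.47 and 0.19.

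**Figure D3:**
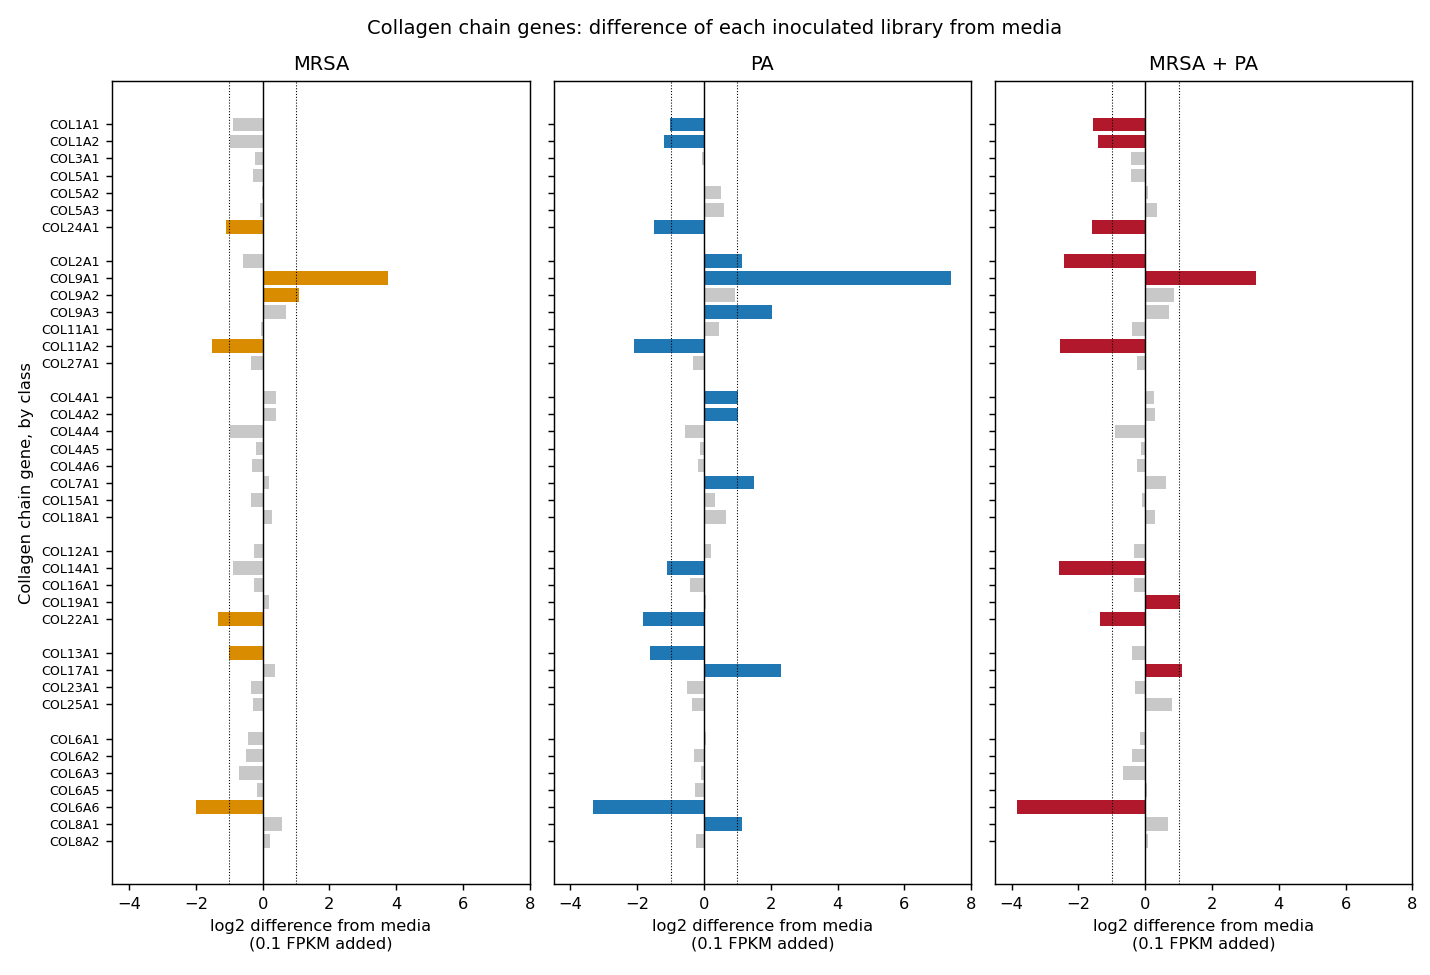
Log2 difference from media, with 0.1 FPKM added, of the 38 chains with a mean of at least 1 FPKM, in the MRSA, PA and MRSA + PA libraries. Coloured bars are at least 2-fold from media (dotted lines at -1 and 1), and COL9A1 with PA, at 7.38, is the longest.

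The cartilage collagens included COL9A1, the chain furthest from media with MRSA and with PA. COL9A1, the alpha 1 chain of type IX, which coats type II fibrils, was lowest with media. It was at 0.0642 FPKM with media, 2.099 with MRSA, 27.3 with PA and 1.52 with MRSA + PA, so PA stood well above the other 3 libraries. The log2 differences from media were 3.74, 7.38 and 3.31, and they depend on the 0.1 FPKM added because the media value is under it. With 1 FPKM added they were 1.54, 4.73 and 1.25, and with 0.01 FPKM added 4.83, 8.53 and 4.37. Its partner chains were present with media and differed less. COL9A2 was at 5.07 FPKM with media and 10.8, 9.79 and 9.37 with MRSA, PA and MRSA + PA (log2 differences 1.08, 0.93 and 0.87). These lay near the 2-fold line, and the MRSA difference was 0.82 with equal sums over all features. COL9A3 was at 1.58, 2.62, 6.82 and 2.67 FPKM, at least 2-fold above media with PA alone (2.04). The ratio of COL9A1 to COL9A2 therefore went from 0.0126 with media to 2.79 with PA.

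COL2A1, the chain of type II collagen and the main fibril protein of cartilage, went in opposite directions with PA and with both species. It was at 12.0 FPKM with media, 7.95 with MRSA, 26.5 with PA and 2.12 with MRSA + PA. That is a log2 difference of 1.13 with PA and -2.45 with MRSA + PA, and MRSA was within 2-fold of media (-0.59). The type XI chains, which lie inside cartilage fibrils, parted from each other. COL11A2 was at 29.4, 10.2, 6.80 and 4.98 FPKM with media, MRSA, PA and MRSA + PA, at least 2-fold lower in each inoculated library (-1.53, -2.10 and -2.54), while COL11A1 was at 63.6, 61.7, 87.3 and 48.4 FPKM, within 2-fold throughout. COL27A1 stayed between 3.96 and 5.06 FPKM, and COL10A1, the chain of growth plate cartilage that matures toward bone, was at or under 0.730 FPKM in every library.

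The other cartilage genes did not move as a block either. Of 12 listed chondrocyte markers, among them alternative names, 10 were found and 8 passed the filter. The sum of those found was 149.8 FPKM with media, 63.2 with MRSA, 38.9 with PA and 26.5 with MRSA + PA. It was highest with media, where COL9A1 was lowest, but COMP and CHAD made most of that media sum. Of the 8, 3, 4 and 4 were at least 2-fold below media with MRSA, PA and MRSA + PA, and 1, 2 and 1 above. MATN3, in each count above media, and LECT1, in the one with PA, passed the level filter only through PA. ACAN, in each count below media, passed it only through media. These markers were let in by the library where they were high. The cartilage proteoglycan ACAN was at 4.36, 1.54, 0.452 and 0.202 FPKM, and COMP, which is also made in tendon, at 42.4, 21.3, 2.14 and 0.682 FPKM with media, MRSA, PA and MRSA + PA. MATN3, a cartilage matrix protein, was highest with PA, at 3.28 FPKM against 0.325 with media, and so was LECT1, at 2.87 against 0.851. SOX9, the transcription factor of chondrocytes, stayed between 6.93 and 9.18 FPKM. MATN1, a defining marker of mature cartilage, was listed at 0 with media, PA and MRSA + PA and at 0.0219 FPKM with MRSA. The part of cartilage in these differences was not tested.

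**Figure D4:**
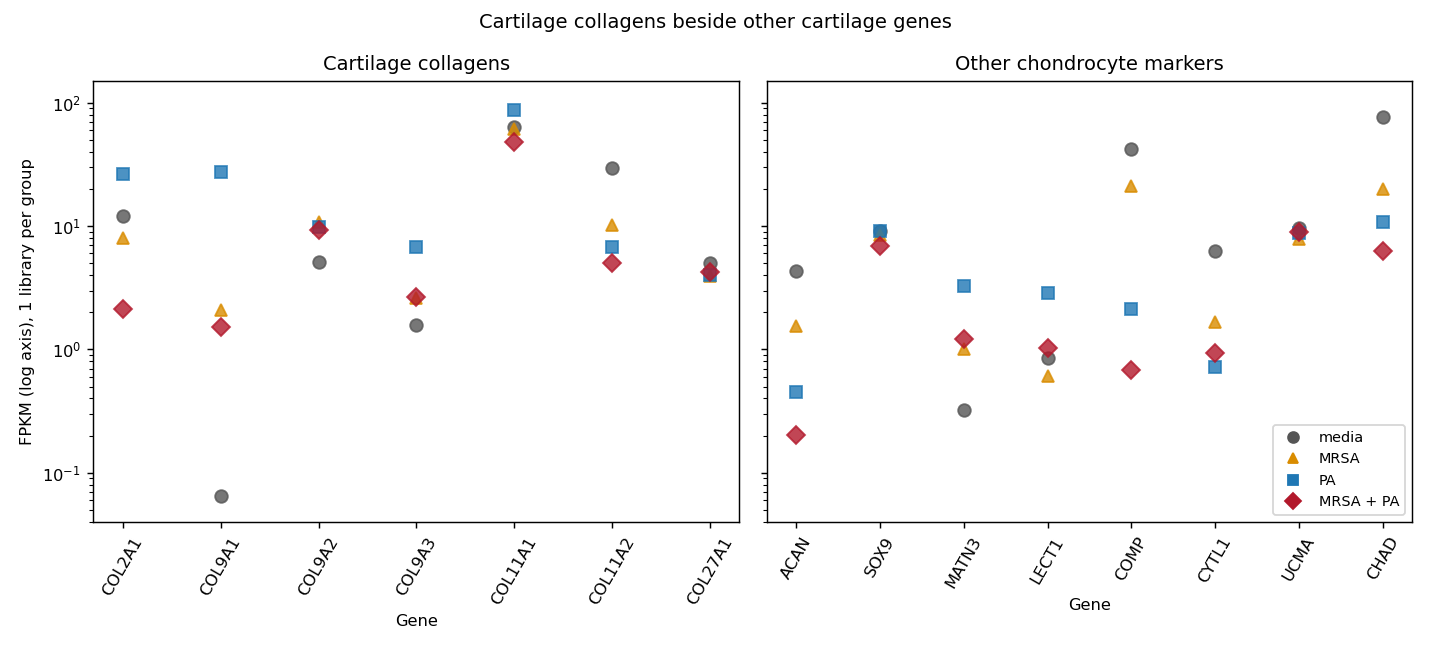
FPKM on a log axis of the 7 cartilage collagens (left) and the 8 other chondrocyte markers (right) with a mean of at least 1 FPKM, with 1 point for each of the 4 libraries. PA is the highest library for COL2A1, COL9A1, COL9A3, COL11A1, MATN3, LECT1 and, barely, SOX9. Media is the highest for COL11A2, COL27A1, ACAN, COMP, CYTL1, UCMA and CHAD, and MRSA for COL9A2.

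Among basement membrane collagens, the type IV chains moved in pairs. In the rat genome each pair of type IV genes lies head to head on opposite strands. RefSeq windows of 250 bases before to 50 after the start site, on build GRCr8, were available for 35 of the 44 chains in 38 windows. The window of COL4A1 (chr16:84885347-84885646, plus strand) shares 176 bases with that of COL4A2, and the 2 start sites are 77 bases apart. The window of COL4A3 (chr9:91323740-91324039, plus strand) shares 88 bases with that of COL4A4, and those start sites are 413 bases apart. COL4A5 and COL4A6 start 1415 bases apart on the X chromosome and share none of their windows. The first 2 shared stretches are shown because the genes on either side of them had nearly the same differences from media. COL4A5 and COL4A6, which share no window bases, were also close, at 0.122, 0.054 and 0.125 log2 apart with MRSA, PA and MRSA + PA. COL4A3 and COL4A4 were 0.071, 0.058 and 0.049 apart. COL4A1 and COL4A2, the pair that shares the most bases, were the closest with each inoculum, at 0.0045, 0.0053 and 0.024 apart. The part of the shared bases in these values was not tested. Capitals mark the bases that also belong to the window of the partner gene.
COL4A1: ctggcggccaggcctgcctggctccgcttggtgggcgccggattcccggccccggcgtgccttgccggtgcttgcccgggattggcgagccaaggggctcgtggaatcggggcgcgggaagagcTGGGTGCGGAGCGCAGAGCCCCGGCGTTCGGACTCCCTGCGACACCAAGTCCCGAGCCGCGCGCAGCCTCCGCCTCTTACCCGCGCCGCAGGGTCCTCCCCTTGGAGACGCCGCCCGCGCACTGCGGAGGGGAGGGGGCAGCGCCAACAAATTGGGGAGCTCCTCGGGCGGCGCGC
COL4A3: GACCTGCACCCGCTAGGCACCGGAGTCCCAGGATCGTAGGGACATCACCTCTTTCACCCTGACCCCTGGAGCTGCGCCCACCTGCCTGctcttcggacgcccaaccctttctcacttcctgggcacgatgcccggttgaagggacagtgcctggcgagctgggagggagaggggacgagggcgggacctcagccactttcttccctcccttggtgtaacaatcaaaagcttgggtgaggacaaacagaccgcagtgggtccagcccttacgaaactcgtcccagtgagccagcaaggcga
The letters CCAAT, read on both strands, occur 2 times in the COL4A1 window, both as ATTGG, and not in the COL4A3 window, and 37.5% of all 33469 windows hold them. GGGCGG on both strands occurs 2 times in the COL4A1 window and 1 time in the COL4A3 window, and 33.1% of all windows hold it. TATAAA on both strands is in neither window, and 14.2% of all windows hold it.

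COL4A1 and COL4A2, which together make the common type IV network under most epithelia and vessels, kept almost the same proportion in all libraries. COL4A1 was at 42.0 FPKM with media, 54.9 with MRSA, 84.8 with PA and 50.3 with MRSA + PA. COL4A2 was at 32.1, 42.1, 65.1 and 39.1 FPKM. Both were highest with PA, at log2 differences of 1.01 and 1.02 from media, at the edge of the 2-fold line (0.95 for both with median-of-ratios scaling, just under it), and their ratio was between 1.29 and 1.31 in every library. COL4A3 and COL4A4, which build the network of specialised membranes such as those of kidney and cochlea, went the other way. COL4A4 was at 6.62, 3.31, 4.43 and 3.52 FPKM and COL4A3 at 0.850, 0.407, 0.516 and 0.430 FPKM with media, MRSA, PA and MRSA + PA. With 0.1 FPKM added all were within 2-fold of media (COL4A4 -0.98, -0.57 and -0.89, COL4A3 -0.91, -0.63 and -0.84). With nothing added, COL4A3 with MRSA was 0.479 times its media level, past 2-fold, and with 0.01 FPKM added its difference was -1.04. With equal sums over all features the MRSA differences were past 2-fold, at -1.23 for COL4A4 and -1.12 for COL4A3. The ratio of COL4A4 to COL4A3 was between 7.78 and 8.59. COL4A5 ranged from 54.5 to 62.0 FPKM and COL4A6 from 3.53 to 4.399 FPKM, and their ratio was between 14.1 and 15.4. As the table places them, the spans of COL4A1 and COL4A2 overlap by 74 bases and those of COL4A3 and COL4A4 by 578 bases. The sources used here do not state that strand was used in counting, so reads in those bases cannot be assigned to either gene. In all, the spans of 10 chains overlap another feature, COL1A2, COL6A6 and COL9A3 among them.

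**Figure D5:**
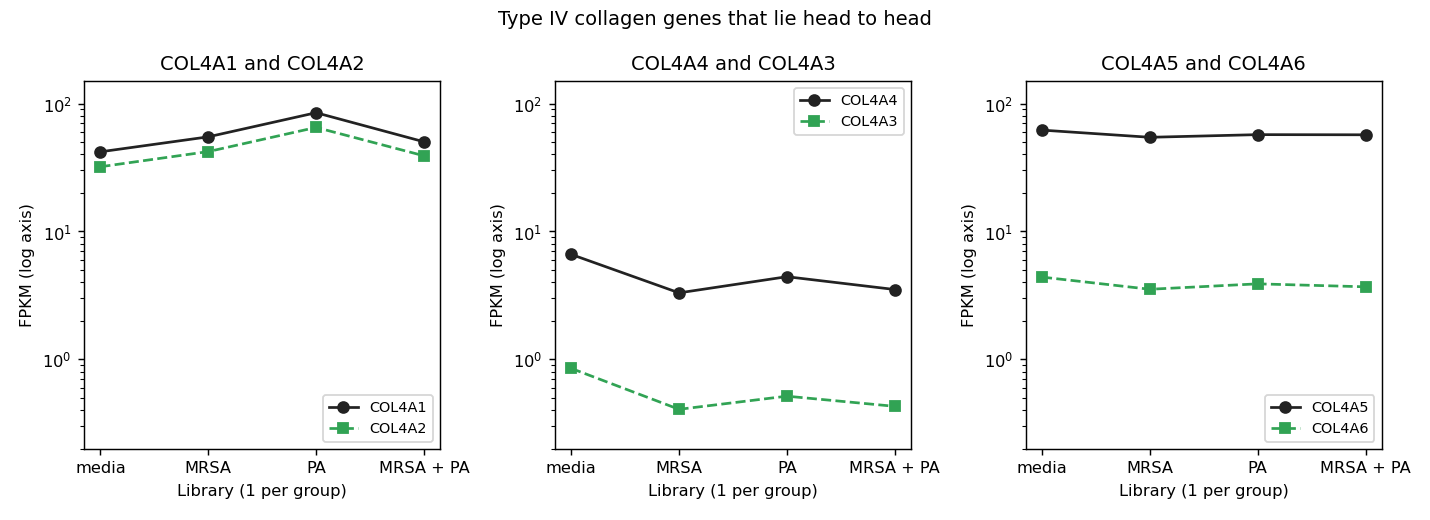
FPKM on a log axis of the 3 pairs of type IV collagen genes in the 4 libraries, with lines that only join the points of 1 gene. COL4A1 and COL4A2 peak together with PA, COL4A3 and COL4A4 are highest together with media, and COL4A5 and COL4A6 vary little.

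The collagens that fasten epithelium to its bed were highest with PA. COL17A1, the transmembrane collagen of hemidesmosomes, was at 7.55 FPKM with media, 9.83 with MRSA, 38.1 with PA and 16.2 with MRSA + PA (log2 differences 0.38, 2.32 and 1.09). COL7A1, the anchoring fibril chain, was at 2.78, 3.22, 8.12 and 4.33 FPKM, and only PA was at least 2-fold above media (1.51). The laminin chains LAMA3 and LAMB3, found under epithelia, had the same highest library. LAMA3 was at 6.50 FPKM with media and 7.85, 21.8 and 13.4 with MRSA, PA and MRSA + PA, and LAMB3 was at 6.14, 12.5, 30.7 and 20.2 FPKM. Both were at least 2-fold above media with PA and with MRSA + PA. Of the 14 other basement membrane genes that passed the filter, of 15 found, LAMB3 was the 1 at least 2-fold above media with MRSA, and none was 2-fold lower in any inoculated library. The list medians were -0.04, 0.51 and 0.14.

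Markers of basal and squamous epithelium were higher beside COL17A1 and COL7A1 with PA, but their median was near media with MRSA and with MRSA + PA. All 8 were found, and their sum was 469.2 FPKM with media, 447.2 with MRSA, 2267 with PA and 701.2 with MRSA + PA. Their median log2 differences were 0.02, 1.41 and 0.09 with MRSA, PA and MRSA + PA. At least 2-fold above media were 1, 5 and 1 of the 8, and 1 was at least 2-fold below with MRSA + PA. KRT1 is 1 of the 5 with PA, the 1 above with MRSA and the 1 below with MRSA + PA. It passed the level filter only through PA, where it was high, and was under 1 FPKM in the other libraries. KRT14, a keratin of basal cells, was at 136, 161, 483 and 256 FPKM. KRT1, a keratin of cornifying epidermis, was at 0.224 FPKM with media, 0.917 with MRSA, 465 with PA and 0.0308 with MRSA + PA, so a cornifying epithelium marker was abundant with PA alone. The part of that epithelium in the COL17A1 and COL7A1 differences was not tested. In the MRSA + PA library, COL17A1 was above media with KRT1 near 0. With PA, KRT1 and another keratin, KRT10 (456 FPKM), made up a large part of the marker sum.

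The other basement membrane collagens stayed within 2-fold of media. COL15A1, which links these membranes to fibrils, was at 54.6, 43.0, 69.4 and 51.4 FPKM, and COL18A1, the source of the fragment endostatin, at 23.0, 27.9, 36.2 and 28.1 FPKM with media, MRSA, PA and MRSA + PA. The 7 endothelial markers, all found, summed to 146.9, 127.8, 137.9 and 151.8 FPKM and none was 2-fold from media. Their median log2 differences were -0.29, 0.14 and -0.10 with MRSA, PA and MRSA + PA. The part of vessels in the COL4A1 and COL4A2 values was not tested. Of the collagen receptors, 9 of 10 passed the filter, with medians of 0.02, 0.33 and 0.24. The integrin chain ITGB1, shared by the collagen-binding integrins, was at 170.3 FPKM with media and 195, 245 and 226 in the other libraries, and the receptor kinase DDR1 was highest with PA at 56.0 FPKM against 37.9. GP6, the platelet collagen receptor, was the receptor gene furthest from media, at 0.641 FPKM there and 3.42, 4.78 and 3.52 with MRSA, PA and MRSA + PA (log2 differences 2.25, 2.72 and 2.29). OSCAR, a collagen receptor of osteoclasts, was at 2.22, 3.05, 7.85 and 6.22 FPKM, and ITGA10, the cartilage integrin chain, at 3.84, 2.36, 1.55 and 2.302 FPKM.

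FACIT collagens split by type. COL14A1, which coats fibrils in tendon and skin, was at 31.8 FPKM with media, 17.2 with MRSA, 14.7 with PA and 5.19 with MRSA + PA (log2 differences -0.88, -1.10 and -2.59). The MRSA value passed 2-fold with equal sums over all features (-1.14), and the PA value fell short of it with equal sums over features of at least 300 bp (-0.94). Its table feature overlaps another feature on the same strand. COL22A1, a chain of the junction between muscle and tendon, was at 3.47, 1.32, 0.908 and 1.30 FPKM, at least 2-fold lower in each inoculated library (-1.33, -1.83 and -1.36). With 1 FPKM added, the MRSA and MRSA + PA differences were -0.95 and -0.96, under 2-fold. COL20A1 had the same order of libraries as COL14A1 at a low level, 1.63 FPKM with media and 0.825, 0.668 and 0.481 with MRSA, PA and MRSA + PA. COL12A1 (59.0 to 85.4 FPKM) and COL16A1 (38.5 to 51.1 FPKM) were within 2-fold of media. Of the chains classed here as FACIT, which leaves out type IX, only COL19A1 was at least 2-fold above media in any library. It was at 0.808, 0.936, 0.848 and 1.78 FPKM, 2-fold only with MRSA + PA (1.05, and 0.62 with 1 FPKM added). It was close to the 1 FPKM limit and passed it only through MRSA + PA, where it was high.

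Skeletal muscle markers were lower beside COL22A1, and all 10 of them were at least 2-fold below media in each inoculated library. They summed to 7197 FPKM with media, 2692 with MRSA, 11.3 with PA and 4.996 with MRSA + PA, while COL22A1 kept 0.261 times its media level with PA and 0.373 times with MRSA + PA. The part of muscle and tendon in the COL22A1 and COL14A1 values was not tested.

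Of the other transmembrane collagens, COL13A1, known from the junction of nerve and muscle, was lowest with PA. It was at 19.7 FPKM with media, 9.78 with MRSA, 6.37 with PA and 14.8 with MRSA + PA (log2 differences -1.001, -1.61 and -0.41), so the MRSA + PA library was nearest to media. The MRSA difference was at the 2-fold line, and was -0.94 with 1 FPKM added. COL23A1 ranged from 3.86 to 5.48 FPKM, within 2-fold. COL25A1 was at 0.994, 0.799, 0.761 and 1.80 FPKM, within 2-fold of media and highest with MRSA + PA. It passed the level filter only through that library.

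Type VI collagen, the beaded filament around most connective tissue cells, stayed near media in its main chains. COL6A1 was at 200.0, 148.5, 207.3 and 180.7 FPKM with media, MRSA, PA and MRSA + PA, COL6A2 at 210.2, 148.9, 170.0 and 160.7 FPKM, and COL6A3 at 75.3, 45.9, 70.4 and 47.6 FPKM, all within 2-fold of media. The ratio of COL6A1 to COL6A2 was between 0.952 and 1.22, and that of COL6A3 to COL6A1 between 0.263 and 0.376. The alternative partner chains were low. COL6A6 was at 3.31 FPKM with media, 0.755 with MRSA, 0.241 with PA and 0.139 with MRSA + PA (log2 differences -2.00, -3.32 and -3.83), and it passed the level filter only through media, the library where it was high. COL6A5 stayed between 2.26 and 2.86 FPKM, and COL6A4 was at or under 0.296 FPKM.

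In type VIII, a network collagen of vessels and the cornea, 1 of the 2 chains was 2-fold from media in any library. COL8A1 was at 37.8 FPKM with media, 57.0 with MRSA, 83.5 with PA and 60.6 with MRSA + PA, 2-fold above media with PA (1.14), while COL8A2 was at 82.9, 96.9, 71.0 and 86.9 FPKM. Their ratio went from 0.456 with media to 1.18 with PA. COL26A1 was at 1.55, 0.751, 0.300 and 0.372 FPKM with media, MRSA, PA and MRSA + PA. COL28A1, known from peripheral nerve, was under 1 FPKM everywhere, at 0.838 FPKM with media and 0.289, 0.252 and 0.333 in the inoculated libraries. The 8 Schwann cell markers, all found, had a lower sum beside it, of 427.8 FPKM with media and 194.9, 171.4 and 175.5 with MRSA, PA and MRSA + PA. The part of nerve in the COL28A1 values was not tested.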

How the data were processed

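Poly(A) RNA of 4 middle ear mucosa libraries, 1 per group, was sequenced by the authors with a TruSeq kit on a HiSeq2500. The deposited table gives FPKM per feature, made by the authors with STAR 2.3.0e and Cufflinks 2.1.1 per the submitters' processing notes; those notes also name edgeR for the authors' comparisons. The paper's methods name a human reference, while the table's chromosomes are those of the rat, and no build is named, so none of its coordinates are printed. FPKM gives no read counts, so the reads behind each value and their counting error are not given here. The 3 deposited comparison tables hold log2 ratios, p-values, q-values and calls, and FPKM again, and were not used. For every sample the treatment text speaks of MRSA alone, so groups follow the label naming what each rat was inoculated with.

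Each gene was represented by its feature of highest mean FPKM. Log2 ratios of the 6 pairs of libraries were computed after 0.1 FPKM was added, for features whose mean reached 1 FPKM, and differences of 2-fold or more were counted. No test was possible with 1 library per group. Every collagen chain was named; in each of the 5 lists of collagen-related genes and the 9 marker lists, the genes with the 4 highest means and those 3 furthest from media could be named (values of 1 of them are not reported here), and any other gene named was chosen after its values were seen. The members and lists were chosen with earlier results of these data known. Calculations used Python 3.11.15, numpy 2.4.6 and pandas 2.3.3, with the steps checked on simulated data. Alternatives were other added values, 3 scalings, other level filters, 1.5-fold, and summing all features of a gene.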

Additional observations from a re-analysis of the deposited data

Results flagged for a closer look

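COL2A1, the type II collagen chain, was listed because it lay on opposite sides of media in different inoculated libraries, with a log2 difference of 1.13 with PA and -2.45 with MRSA + PA. The difference between them was not tested, since each group is 1 library. The directions were kept under every alternative computed for this gene.

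KRT1, used here only as a marker of cornifying epithelium, was listed for the same reason, with a log2 difference of 10.49 with PA and -1.31 with MRSA + PA. Its media value of 0.224 FPKM and its MRSA + PA value of 0.0308 FPKM are both low, and the difference was not tested.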

How the results depend on the processing

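Each group is 1 library, so no library could be left out, and FPKM does not give the reads behind a value. No paired analysis was possible because each group holds 1 library. Of 492 recomputed counts, shares, ratios and medians, 448 kept their direction and their side of the 2-fold line, or stayed within 1.5 times for counts, shares and ratios. Equal FPKM sums over all features moved the median of all features by -0.26 with MRSA and 0.18 with MRSA + PA, and equal sums over features of at least 300 bp moved it by 0.17 with PA. The causes were not tested, beyond what each setting does by construction.

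With 1 FPKM added, the higher chains went from 2 to 1 in MRSA against media, from 1 to 0 in MRSA + PA against MRSA and from 2 to 1 in MRSA + PA against PA, the lower chains from 5 to 2, from 4 to 2 in MRSA + PA against MRSA and from 1 to 0 in PA against MRSA, and the basement membrane median with MRSA from 0.0084 to -0.013. It was also -0.048 with median-of-ratios scaling, -0.25 with equal sums over all features and -0.19 with no filter. The receptor median with MRSA, 0.021, was -0.036 with median-of-ratios scaling, -0.24 with equal sums over all features and -0.012 with the features of a symbol summed. With equal sums over all features, the higher chains with MRSA were 1, the lower 9, and the higher ones in MRSA + PA against MRSA 4, and the medians with MRSA + PA were 0.032 for beaded filament and network collagens and 0.020 for propeptide removal and cross-linking. With equal sums over features of at least 300 bp, the medians with PA were 0.094 for all chains, 0.11 for fibrillar and 1.1 for cartilage collagens, which passed 2-fold, and those with MRSA were 0.0089 for cartilage collagens, 0.026 for cleavage and uptake and 0.012 for other basement membrane genes. Under that scaling COL1A1 and COL14A1 with PA were -0.85 and -0.94. With no filter, 3 chains were lower in PA against MRSA, and the medians were 0.079 for cartilage collagens with MRSA and -0.086 for basement membrane with MRSA + PA. With a mean of 5 FPKM or more required, the lower chains were 2, 5 and 5 with MRSA, PA and MRSA + PA, the higher ones 0 in MRSA + PA against MRSA, 1 in MRSA + PA against PA and 3 in PA against MRSA, with 0 lower there, and the medians were 0.13 for all chains with PA, -0.087 in MRSA + PA against MRSA and 0.35 for transmembrane collagens with PA. That filter also turned the adipocyte marker median from -2.19 to 1.23 with MRSA and from -4.52 to 0.0050 with PA. At 1.5-fold, with MRSA 4 chains were higher and 11 lower, 8 were higher with MRSA + PA, 4 higher in MRSA + PA against MRSA, 9 lower in MRSA + PA against PA, and 10 higher and 2 lower in PA against MRSA.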

Other observations

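COL15A1 had a further feature in the table beside the one described, at 31.8 FPKM with media, 24.0 with MRSA, 36.9 with PA and 25.7 with MRSA + PA, which follows the order of libraries of the larger one. The second features of COL4A3 and COL23A1 were listed at 0 in every library.

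The 6 adipocyte markers, all found, did not move together and are set beside no collagen. Adiponectin (ADIPOQ), a fat cell hormone, was at 35.4 FPKM with media and 6.79, 1.14 and 0.271 with MRSA, PA and MRSA + PA, while FABP4, also made by macrophages and vessels, was at 113, 264, 113 and 106 FPKM. Their sum was 205.8 FPKM with media and 415.4, 196.9 and 182.8 in the inoculated libraries.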
